A study of Homo sapiens with 12 samples.

Results

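Ishikawa cells, a line from an endometrial adenocarcinoma, were compared with H358 and H2009 cells, 2 lines from lung adenocarcinomas, by the genomic positions at which histone H3 was acetylated at lysine 27 (H3K27ac). The comparison used 6 of the 12 libraries of the series, 2 of Ishikawa, 2 of H358 and 2 of H2009. None of these cells was treated per the labels, all grew in RPMI medium with serum, and the same antibody was used throughout. Each line is a single cancer cell line, so Ishikawa stands for 1 endometrial carcinoma and H358 and H2009 for 1 lung adenocarcinoma each. Nothing in the labels says whether the 2 libraries of a line came from separate cultures.

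Peaks of the 6 lists on chromosomes 1 to 22 that overlapped by at least 1 bp were merged into 50137 regions. A region was called Ishikawa-only when both Ishikawa libraries and none of the 4 lung libraries had a peak in it, and lung-only when all 4 lung libraries and neither Ishikawa library did. By this rule 5225 regions (10.4% of all regions) were Ishikawa-only and 1391 (2.77%) were lung-only, while 9390 regions (18.7%) had a peak in all 6 libraries. These counts follow from the rule and are a description. With 2 libraries against 4 there are 15 possible assignments, so the smallest exact permutation p is 0.0667, and no test between the groups was run.

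Acetylation of lysine 27 is placed by the acetyltransferases EP300 and CREBBP and marks promoters and enhancers that are in use, so the set of acetylated enhancers differs between cell types far more than the set of acetylated promoters does. The epithelium of the uterus arises from the Müllerian duct, whose regional identity is set by homeodomain factors such as EMX2 and the posterior HOXA genes, and it responds to oestrogen and progesterone through ESR1 and PGR. The epithelium of the distal lung arises from the foregut, where NKX2-1 is the lineage factor and drives surfactant genes such as SFTPB and SFTPC. PAX8 and SOX17 are transcription factors of Müllerian epithelium, and FOXA1, FOXA2 and GATA6 act in endoderm.

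Promoters of 4 genes are printed as examples, picked after their values were seen. Of the listed genes, 17 had a peak at the start in both Ishikawa and 0 lung libraries, and 1 had the reverse. A peak within 2 kb need not cover the printed stretch. DKK1, EMX2 and CDX2 had a peak within 2 kb of the start in both Ishikawa libraries and in 0 of 4 lung libraries, and EREG had one in all 4 lung libraries and neither Ishikawa library. Their sequences come from RefSeq (GRCh38.p14), run from 250 bases before to 50 bases after the start of transcription, and are written 5′ to 3′ on the gene's strand, with each CG dinucleotide in capitals. Their positions in that build are chr10:52314031-52314330 on the plus strand for DKK1, chr10:117542496-117542795 on the plus strand for EMX2, chr13:27969266-27969565 on the minus strand for CDX2 and chr4:74364895-74365194 on the plus strand for EREG.
DKK1: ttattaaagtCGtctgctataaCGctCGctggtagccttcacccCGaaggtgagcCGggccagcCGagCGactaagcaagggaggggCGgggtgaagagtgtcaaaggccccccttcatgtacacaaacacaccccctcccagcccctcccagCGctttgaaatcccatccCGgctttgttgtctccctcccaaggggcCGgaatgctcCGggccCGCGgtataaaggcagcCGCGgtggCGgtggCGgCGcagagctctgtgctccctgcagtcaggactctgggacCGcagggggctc
EMX2: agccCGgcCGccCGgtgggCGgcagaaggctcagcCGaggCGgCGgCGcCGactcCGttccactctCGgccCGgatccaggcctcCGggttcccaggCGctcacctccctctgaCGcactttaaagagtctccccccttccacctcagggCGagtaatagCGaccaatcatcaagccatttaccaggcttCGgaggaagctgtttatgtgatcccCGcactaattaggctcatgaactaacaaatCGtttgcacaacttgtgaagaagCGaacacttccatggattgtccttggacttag
CDX2: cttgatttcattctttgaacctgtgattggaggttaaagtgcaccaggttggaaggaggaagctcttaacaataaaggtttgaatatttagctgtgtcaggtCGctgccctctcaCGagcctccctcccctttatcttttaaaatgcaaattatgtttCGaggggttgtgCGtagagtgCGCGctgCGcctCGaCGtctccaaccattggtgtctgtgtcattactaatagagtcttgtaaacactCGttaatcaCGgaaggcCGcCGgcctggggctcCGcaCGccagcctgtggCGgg
EREG: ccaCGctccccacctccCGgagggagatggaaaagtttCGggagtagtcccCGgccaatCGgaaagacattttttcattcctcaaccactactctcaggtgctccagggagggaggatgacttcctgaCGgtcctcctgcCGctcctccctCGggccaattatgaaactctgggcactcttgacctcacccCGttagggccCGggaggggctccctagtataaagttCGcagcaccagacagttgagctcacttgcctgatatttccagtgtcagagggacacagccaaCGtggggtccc
CG dinucleotides are where vertebrate DNA is methylated, and promoters rich in them are usually left unmethylated. The DKK1 promoter held 20 of them, EMX2 21, CDX2 16 and EREG 12. Of 35116 promoters of this length in the table, 41.2% held at least as many as DKK1, 39.5% at least as many as EMX2, 47.5% at least as many as CDX2 and 53.1% at least as many as EREG, and the median was 14. All 4 promoters were thus near the middle of all promoters in CG number. The sequence of the regions themselves is not printed, since a genome of the files' build, hg19, was not used here.

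The files hold no read counts, so sequencing depth is unknown, and the peaks and called bases per list stand for what each library could show. The Ishikawa libraries had 23623 and 26474 peaks on these chromosomes, against 26202 and 26344 in H358 and 26129 and 25719 in H2009. Their median widths were 1522 and 963 bp in Ishikawa, against 376, 383, 348 and 374 bp in the lung libraries. Called bases summed to 40.4 and 31.7 Mb in Ishikawa, against 11.5, 11.8, 10.6 and 11.2 Mb in the lung libraries. The number of peaks was thus alike, but the Ishikawa peaks were wider. Ishikawa lists also came in another file form (5 columns, against 10 in the lung lists), and a difference between the lines cannot be told apart from one of the peak calling.

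Of the regions with a peak in both Ishikawa libraries, 26.2% had no lung peak, and of those with a peak in all 4 lung libraries, 12.6% had no Ishikawa peak. Regions just outside the rule were numerous. Both Ishikawa libraries and 1 lung library had a peak in 1472 regions, and 1 Ishikawa library without any lung library had one in 5326. On the lung side, 1 Ishikawa library and all 4 lung libraries had a peak in 255 regions, and 3 lung libraries without an Ishikawa library had one in 1932. The lung lines also differed from each other. Both H358 libraries had a peak without Ishikawa in 4041 regions and both H2009 libraries in 4289, of which 1391 were common to both lines.

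**Figure D1:**
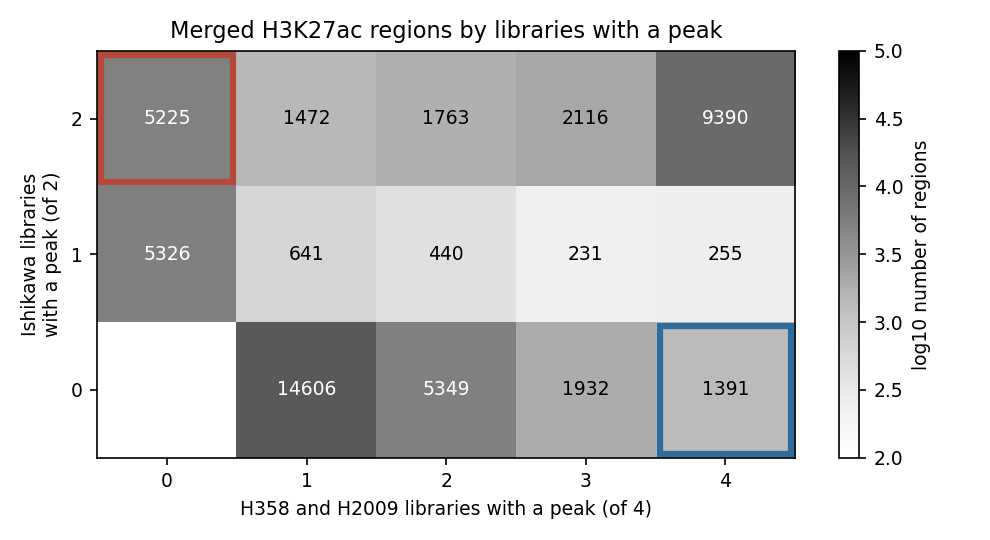
Merged H3K27ac regions by the number of Ishikawa libraries (rows, of 2) and of H358 and H2009 libraries (columns, of 4) with a peak, with the number of regions in each cell and its log10 as shading. The red frame marks the 5225 Ishikawa-only regions and the blue frame the 1391 lung-only regions; the darkest cells are the 14606 regions of 1 lung library alone and the 9390 regions of all 6.

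Ishikawa-only regions had a median width of 1495 bp, lung-only regions of 655 bp and regions of all 6 libraries of 1984 bp. Within their own lists, the peaks of Ishikawa-only regions ranked low by the authors' deposited score. Their median percentile was 32.3 and 32.9 in the 2 Ishikawa lists, where peaks of regions shared by all 6 libraries stood at 77.4 and 75.4. Peaks of lung-only regions stood in the middle, at 53.4, 54.5, 55.4 and 55.4 in the lung lists, where shared peaks stood at 69.6, 69.1, 67.5 and 66.7. In 801 Ishikawa-only regions (15.3%) and 266 lung-only regions (19.1%), every library of the group had a peak in the higher-ranked 50% of its list. In 3636 Ishikawa-only regions (69.6%) and 111 lung-only regions (7.98%), no library had one. A lung-only region had more libraries in its group than an Ishikawa-only region, so these shares of regions are not matched between the classes. Library by library, 19.7% and 23.4% of the peaks of Ishikawa-only regions were in the higher-ranked 50% of their list. For lung-only regions it was 53.6% and 55.7% in H358 and 55.8% and 55.0% in H2009. In each Ishikawa list, most peaks of the Ishikawa-only class thus ranked low. The lung-only rule asks for a peak in more lists, and what this does to rank was not tested.

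Most regions of either class lay over 10 kb from the other group's peaks. Ishikawa-only regions were measured against the 4 lung lists and lung-only regions against the 2 Ishikawa lists, so the classes are not matched here. No distance expected for other regions was computed. The median distance to the nearest peak of the other group was 21.7 kb for Ishikawa-only and 26.9 kb for lung-only regions. A peak of the other group lay within 1 kb of 442 Ishikawa-only regions (8.46%) and of 68 lung-only regions (4.89%), and these can be the same site with a different peak edge. No such peak lay within 10 kb of 67.2% of Ishikawa-only and 76.3% of lung-only regions.

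**Figure D2:**
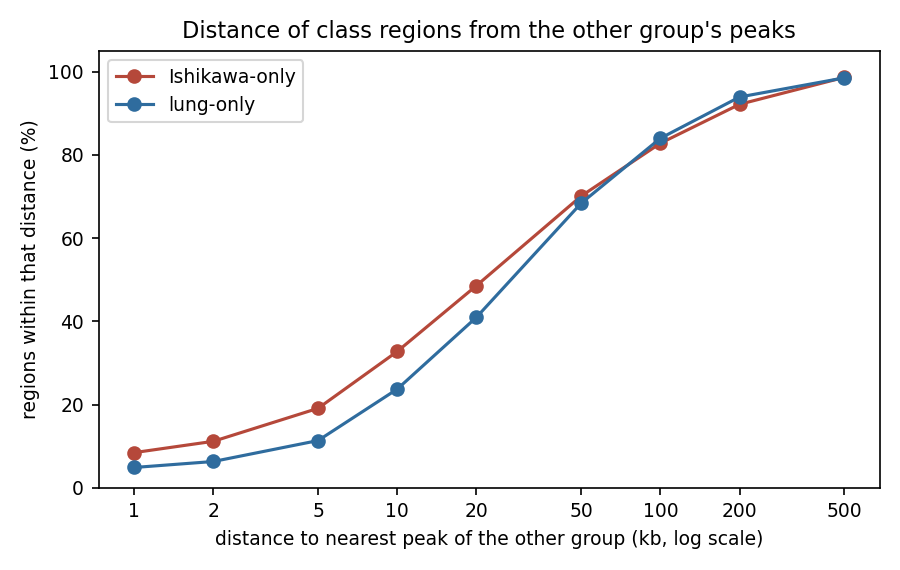
Share of Ishikawa-only and lung-only regions (vertical axis, %) within a given distance of the nearest peak of the other group (horizontal axis, kb, log scale). The Ishikawa-only line lies above the lung-only line up to 50 kb, with 32.8% against 23.7% of regions within 10 kb, and the lines lie close together beyond it. Ishikawa-only regions are measured against 4 lists and lung-only regions against 2.

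The 6 other lists of the series took no part in the rule. HCC95 comes from a squamous lung tumour. BICR31 is given as squamous, of the head and neck, in the design of the series, although its tumour label reads lung adenocarcinoma. In H2009 there were 4 more libraries (e3KRAB1, e3KRAB2, Control and Empty), whose lists were short, with 1349 to 3204 peaks. Each of these 6 is 1 library. The HCC95 list held 22850 peaks and the BICR31 list 41161, so peak counts and shares in the 2 are not directly comparable. HCC95 had a peak in 882 Ishikawa-only regions (16.9%, 95% Wilson interval 15.9% to 17.9%) and in 486 lung-only regions (34.9%, 32.5% to 37.5%), against 34.4% of all regions. BICR31 had a peak in 1389 Ishikawa-only regions (26.6%, 25.4% to 27.8%) and in 999 lung-only regions (71.8%, 69.4% to 74.1%), against 52.1% of all regions. The intervals cover counting error only. The lung-only class was thus largely found in BICR31, the longer list, above the share over all regions, but in HCC95 it was near that share. The Ishikawa-only class was below the share over all regions in HCC95 and in BICR31. A merged region enters the lung-only class with peaks in 4 libraries and the Ishikawa-only class with peaks in 2, so the classes are not matched for how often their sites are called.

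At least 1 of the further H2009 lists had a peak in 53 Ishikawa-only regions (1.01%, 0.776% to 1.32%) and in 316 lung-only regions (22.7%, 20.6% to 24.99%), against 10.5% of all regions. These libraries come from a line whose untreated lists defined the lung-only class. Among the 801 Ishikawa-only regions with higher-ranked peaks in both libraries, HCC95 had a peak in 26.2% and BICR31 in 34.5%, and among the 266 such lung-only regions HCC95 had one in 44.0% and BICR31 in 79.3%.

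**Figure D3:**
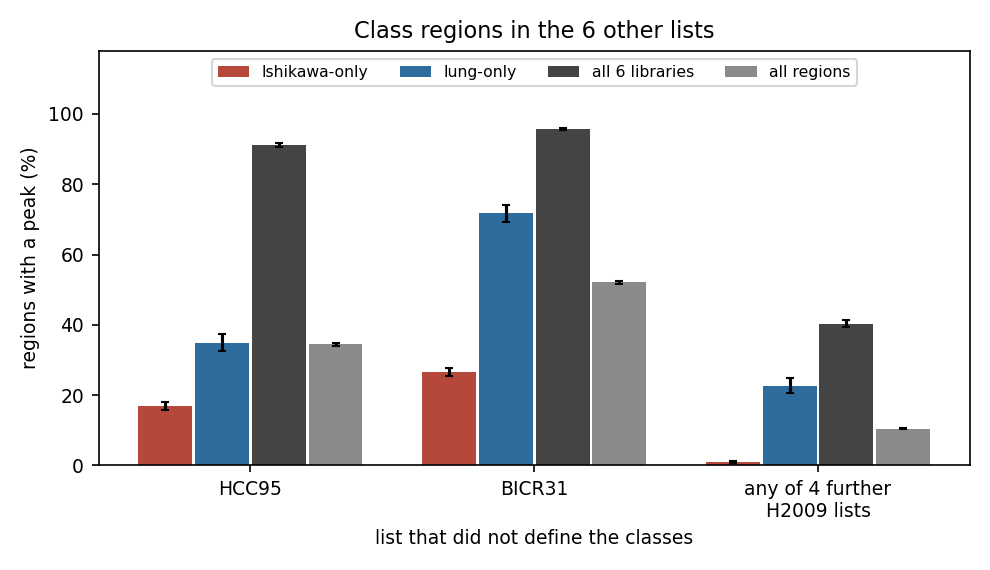
Share of Ishikawa-only regions, lung-only regions, regions of all 6 libraries and all merged regions (bars, %) with a peak in HCC95, in BICR31 or in any of the 4 further H2009 lists, with 95% Wilson intervals. The Ishikawa-only bars stand below the lung-only bars in each list, by the widest margin in BICR31 (26.6% of Ishikawa-only, against 71.8% of lung-only regions).

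Gene neighbourhoods were read as the number of peaks of each library within 100 kb of the start of 131 listed genes in 13 lists. A gene was counted as higher in one group when all libraries of that group had more peaks than every library of the other. In the 9390 regions of all 6 libraries there were 9529 and 11075 Ishikawa peaks, against 12707 and 12850 in H358 and 12656 and 12602 in H2009. A shared region thus held more peaks in the lung lists, and more lung peaks need not mean more regions. Over the 10928 windows of 200 kb that held a peak, the same call gave Ishikawa higher in 14.2% and lung higher in 11.5%. Windows with a region of all 6 libraries, 4972 in number, gave 8.53% and 15.2%. Beside these shares, 34 of the 131 listed genes were higher in Ishikawa and 19 were higher in lung. The 131 include KLHL14 and MPPED2, listed because earlier results of these data had shown them. Windows of neighbouring listed genes overlap, as at HOXA10 and HOXA11, so 1 stretch can count more than once. The listed genes are thus not a sample of the windows, and no excess is read from their counts. As a further measure, the bases called in a window were divided by the called bases of the whole list, here called the base share and given per Mb called. By base share 53 of the 131 genes were higher in Ishikawa and 22 in lung, against 20.9% and 20.5% of all windows. Counts in the single lists below stand beside the same shares. The median difference in peaks, mean Ishikawa minus mean lung, was 0.25 peaks over the listed genes and -0.25 over all windows. An Ishikawa-only region lay in the window of 73 of the 131 genes (32.5% of all windows, 35.1% of those with a region of all 6 libraries), and a lung-only region in that of 25 (10.3% and 13.5% of windows).

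Of 20 genes of endometrial and Müllerian epithelium, 6 were higher in Ishikawa and 1 in lung by peaks, and 11 and 1 by base share. Over all windows the shares were 14.2% and 11.5% by peaks and 20.9% and 20.5% by base share. EMX2, a homeodomain factor needed for the reproductive tract in mice, had 2 and 2 peaks in the Ishikawa libraries, against 0, 0, 0 and 0 in the lung libraries. Its Ishikawa-only regions lay side by side at chr10:119301225-119308221 and chr10:119308223-119313644 (hg19), 6997 and 5422 bp wide, though in the higher-ranked 50% of the lists the difference between the groups was 0. PGR, the progesterone receptor, had 2 and 5 peaks in Ishikawa, against 1 and 0 in H358 and 0 and 0 in H2009, with an Ishikawa-only region at its start (chr11:100997600-101000508). With the higher-ranked 50% of each list alone, the PGR difference turned to -0.25 peaks. MSX2 and WT1, a homeodomain and a zinc finger factor of the developing genital tract, each had 1 and 1 peaks in Ishikawa, at the start of the gene, against none in the 4 lung libraries. In the squamous lines HCC95 and BICR31, EMX2 had 0 and 3 peaks, MSX2 2 and 2, WT1 0 and 1, and PGR none.

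The posterior HOXA genes pattern the uterus. Around HOXA10 and HOXA11, whose windows overlap and hold the same peaks, Ishikawa had 14 and 15 peaks, against 5 and 3 in H358 and 11 and 10 in H2009. An Ishikawa-only region lay at the HOXA11 start (chr7:27223111-27224514). HOXA5, whose window overlaps these, had 13 and 15 peaks in Ishikawa, against 7 and 4 in H358 and 11 and 10 in H2009. The difference was thus not limited to the posterior HOXA genes. H2009 stood nearer to Ishikawa than H358 did, though below both Ishikawa libraries, and HCC95 and BICR31 had 10 and 15 peaks there.

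The receptor ESR1, through which oestrogen acts, had 5 and 5 peaks in Ishikawa, against 0 and 2 in H358 and 5 and 2 in H2009, so the groups overlapped in number. The 5 Ishikawa-only regions near ESR1 were nonetheless at positions without any lung peak. Of these, 4 lay on the upstream side of the start, from chr6:152078485-152079416 to chr6:152101784-152103399, the widest at chr6:152084398-152087103 (2706 bp), and 1 lay 27.4 kb downstream of it.

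The Müllerian factors PAX8 and SOX17 gave different pictures by peaks and by bases. PAX8 had 3 and 4 peaks in Ishikawa, against 7 and 6 in H358 and 4 and 6 in H2009. By base share the order at PAX8 was the other way, with 374 and 404 bases per Mb called in Ishikawa, against 248 and 208 in H358 and 139 and 244 in H2009. A region of 5096 bp over the PAX8 start (chr2:114032637-114037732) had a peak in 1 Ishikawa library and in no lung library, so it was not a member. PAX8 instead had 2 lung-only regions in its window, chr2:113997383-113998297 and chr2:114041750-114042435. SOX17 had 3 and 2 peaks in Ishikawa, against 0 and 0 in H358 and 3 and 2 in H2009, and 1 Ishikawa-only region, 5438 bp wide and 8.57 kb from its start. By base share SOX17 was higher in Ishikawa, with 276 and 165 bases per Mb called, against none in H358 and 126 and 75.3 in H2009. Its start had a peak in 1 Ishikawa library and 1 lung library, in separate regions.

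PAX2 had no peak in any of the 6 libraries. Against the lung lines, EMX2, PGR, MSX2, WT1, HOXA10 and HOXA11 were thus higher in Ishikawa by peaks, while 13 of the 20 genes of this list overlapped. In the higher-ranked 50% of the lists the difference was 0 at EMX2 and -0.25 peaks at PGR. Of the genes of this list that were higher in Ishikawa by peaks, only PGR had no peak in HCC95 or BICR31. LHX1, a homeodomain factor of the early Müllerian duct, was the 1 gene of this list higher in lung, with 1 and 2 peaks in Ishikawa, against 4 and 6 in H358 and 5 and 7 in H2009.

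Of 20 genes of lung epithelium, 3 were higher in Ishikawa and 5 in lung by peaks, and 4 and 5 by base share. Over all windows the shares were 14.2% and 11.5% by peaks and 20.9% and 20.5% by base share. The base share counts of this list lie near them. NKX2-1 had 1 and 1 peaks in Ishikawa, against 6 and 6 in H358 and 3 and 2 in H2009. The single Ishikawa peak lay in a region of all 6 libraries 62.3 kb from the gene, and a region within 2 kb of the NKX2-1 start (chr14:36987667-36988620) had a peak in 2 of the 4 lung libraries, so no lung-only region was counted there. In the higher-ranked 50% of the lists the groups overlapped at NKX2-1, with a difference of -1 peaks. HOPX, a homeodomain-only cofactor of alveolar type 1 cells, had 0 and 1 peaks in Ishikawa, against 5 and 4 in H358 and 5 and 4 in H2009. Its lung-only region was chr4:57506914-57507556.

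SFTPB, which encodes a surfactant protein, had 5 and 5 peaks in Ishikawa, against 7 and 10 in H358 and 10 and 12 in H2009. No library had a peak within 2 kb of the SFTPB start, and its 2 lung-only regions lay over 82 kb away, beside regions shared by all 6 libraries. The groups overlapped at SFTPB by base share, in windows of 250 kb each side and in the higher-ranked 50% of the lists, and within 50 kb the difference was 0. LPCAT1, an enzyme of surfactant lipid synthesis, had 4 and 5 peaks in Ishikawa, against 7 and 7 in H358 and 16 and 13 in H2009. It had most lung-only regions of all listed genes, 4, between 22.9 and 41.2 kb from its start at chr5:1546450-1565390, a stretch without any Ishikawa peak. SCGB3A2, a secretoglobin of airway cells, had no Ishikawa peak, against 2 and 1 in H358 and 1 and 2 in H2009.

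Other lung markers did not separate the lines. NAPSA, the aspartic protease napsin A, had 7 and 7 peaks in Ishikawa, against 10 and 7 in H358 and 6 and 6 in H2009, in a gene-dense stretch with 4 regions of all 6 libraries. SCGB1A1, a club cell secretoglobin, had 3 and 2 peaks in Ishikawa, against 4 and 4 in H358 and 2 and 4 in H2009, with 1 Ishikawa-only and 2 lung-only regions. SFTPA1 and CLDN18 had no peak in any library, and SFTPB, SFTPC and NAPSA had none at the start. By peaks 12 of the 20 genes overlapped and 3 went the other way, so the list as a whole did not separate the lines. NKX2-1, HOPX, LPCAT1 and SCGB3A2 were higher in lung by peaks and by base share, but NKX2-1 and SCGB3A2 had no lung-only region. Lung libraries with a peak at the start numbered 2 of 4 for NKX2-1, 1 for HOPX, 4 for LPCAT1 and 0 for SCGB3A2. At LPCAT1 both Ishikawa libraries had one too. The genes higher in lung by peaks were not free of peaks in the squamous lines. HCC95 and BICR31 had 2 and 4 at NKX2-1, 3 and 6 at HOPX, 3 and 7 at LPCAT1, 3 and 3 at SCGB3A2 and 6 and 8 at SFTPB.

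Genes of this list higher in Ishikawa were AQP5, a water channel, SLC34A2, a phosphate carrier, and ETV5, an ETS factor. AQP5 had 7 and 7 peaks in Ishikawa, against 1 and 3 in H358 and 2 and 2 in H2009, and 1 of its 3 Ishikawa-only regions lay within 2 kb of the start (chr12:50352783-50354987). SLC34A2 had 2 and 5 peaks in Ishikawa and none in the lung libraries. ETV5 had 4 and 6 in Ishikawa, against 1 and 2 in H358 and 2 and 0 in H2009.

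Among 12 foregut and gut genes, 4 were higher in Ishikawa and 0 in lung by peaks, and 6 and 1 by base share. CDX2, the intestinal homeodomain factor, had 3 and 3 peaks in Ishikawa and none in the 4 lung libraries, with an Ishikawa-only region of 1151 bp at its start (chr13:28542155-28543305). TFF1 and TFF3, secreted trefoil peptides, are neighbours whose windows share the same 4 Ishikawa-only regions. TFF1 had 5 and 6 peaks in Ishikawa and none in lung, and TFF3 6 and 9 in Ishikawa, against 0 and 1 in H358 and 0 and 0 in H2009. HNF4A, a nuclear receptor of liver and gut, had 2 and 2 peaks in Ishikawa, against 1 in each lung library.

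FOXA1, FOXA2 and GATA6 were not higher in either group by peaks, though GATA6 was higher in lung by base share. FOXA1 had 3 and 2 peaks in Ishikawa, against 5 and 3 in H358 and 0 and 0 in H2009. FOXA2 had 0 and 0 in Ishikawa, against 2 and 3 in H358 and 0 and 0 in H2009. GATA6 had 2 and 1 in Ishikawa, against 2 and 3 in H358 and 3 and 3 in H2009. At FOXA1 and FOXA2 the lung lines thus differed from each other, H2009 being without peaks.

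Of 8 Wnt target genes, 4 were higher in Ishikawa and 0 in lung by peaks, and 4 and 2 by base share. LGR5, an R-spondin receptor of stem cells, had 6 and 7 peaks in Ishikawa, against none in any lung library, and none in HCC95 or BICR31. Its 5 Ishikawa-only regions ran from the start (chr12:71832941-71834094) for 94.6 kb, the widest of 5277 and 4810 bp. NKD1, an inhibitor that Wnt signalling induces, had 4 and 3 peaks in Ishikawa and none in the 4 lung libraries, HCC95 or BICR31. LEF1, a transcription factor of the pathway, had 2 and 4 in Ishikawa, against 0 and 0 in H358 and 1 and 0 in H2009. AXIN2, a feedback inhibitor, had 3 and 4 in Ishikawa, against 2 and 2 in H358 and 0 and 0 in H2009. DKK1, a secreted Wnt inhibitor, overlapped in number, with 4 and 5 peaks in Ishikawa, against 0 and 1 in H358 and 4 and 3 in H2009. The DKK1 promoter shown above nonetheless had a peak in both Ishikawa libraries and in no lung library, in a region of 888 bp at chr10:54073393-54074280. RNF43, SP5 and TCF7 overlapped between the groups in peaks as well, but by base share SP5 and TCF7, transcription factors of the pathway, were higher in lung.

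Of 9 growth factor receptors and ligands, FGFR2 was higher in Ishikawa and EREG in lung by peaks, and by base share 2 were higher in Ishikawa and 4 in lung. The counts by peaks lie near the shares over all windows, 14.2% and 11.5%. FGFR2, a receptor for fibroblast growth factors and a cancer gene of the endometrium, had 7 and 6 peaks in Ishikawa, against none in any lung library. HCC95 and BICR31 had 5 and 4 peaks there. The 5 Ishikawa-only regions at FGFR2 included a pair at the start, chr10:123356888-123357885 and chr10:123358027-123358779, and a region of 5313 bp within the gene, chr10:123282558-123287870. EREG, a ligand of the epidermal growth factor receptor, had 1 and 1 peaks in Ishikawa, against 4 and 5 in H358 and 4 and 7 in H2009. At the EREG promoter the lung peaks fell into separate regions of 1 or 3 libraries, so no lung-only region was counted there. EGFR, ERBB2, ERBB3, MET, AXL, AREG and TGFA overlapped between the groups in peaks. By base share TGFA was higher in Ishikawa and MET, AXL and AREG in lung.

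Of 7 target genes of the MAP kinase pathway, 2 were higher in Ishikawa and 0 in lung by peaks, and 3 and 0 by base share. DUSP6, a phosphatase of ERK, had 7 and 8 peaks in Ishikawa, against 2 and 2 in H358 and 1 and 1 in H2009. All 6 libraries had a peak at its start, and the 5 Ishikawa-only regions lay 21.8 to 99.8 kb away on 1 side. They belonged to a group of 6, named after its values were seen, within chr12:89766377-89860848, a stretch in which Ishikawa had 7 and 7 peaks and no lung library had any. SPRY2, an inhibitor of the same pathway, had 3 and 4 in Ishikawa, against 1 and 1 in H358 and 0 and 0 in H2009.

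Of 6 genes of the AP-1 family, JUNB, FOS and ATF3 were higher in Ishikawa and JUN in lung by peaks, and by base share JUNB and FOS alone were higher in Ishikawa and none in lung. JUN had 7 and 7 peaks in Ishikawa, against 11 and 9 in H358 and 10 and 14 in H2009, with 2 Ishikawa-only and 2 lung-only regions in its window. Its lung-only regions were chr1:59220453-59221294 and chr1:59314783-59315938.

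In the 12 HOX windows, 5 were higher in Ishikawa and 0 in lung by peaks (9 and 0 by base share), but these 5 lay in 2 clusters whose windows overlap, HOXA and HOXD. HOXD13 had 9 and 11 peaks in Ishikawa, against 4 and 4 in H358 and 8 and 8 in H2009, with an Ishikawa-only region at the start (chr2:176957109-176958746).

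Among 14 general epithelial genes, 2 were higher in Ishikawa and 4 in lung by peaks, but 6 and 3 by base share, so the balance depended on the measure. Over all windows the shares were 14.2% and 11.5% by peaks and 20.9% and 20.5% by base share. KRT7, a keratin of glandular epithelium, had 9 and 9 peaks in Ishikawa, against 7 and 8 in H358 and 6 and 8 in H2009, with 4 Ishikawa-only regions and 1 lung-only region. The KRT7 difference turned to -0.50 peaks in the higher-ranked 50% of the lists, while its base share was 691 and 787 per Mb called in Ishikawa, against 240 and 265 in H358 and 200.3 and 218 in H2009. CDH1, the epithelial cadherin, had 6 and 6 peaks in Ishikawa, against 7 and 9 in H358 and 9 and 7 in H2009, with 1 region of each class. MUC1, a membrane mucin, had 13 and 14 in Ishikawa, against 17 and 17 in H358 and 19 and 20 in H2009, in a window of 16 regions. These genes carried many peaks in both groups, and the differences were of a few peaks.

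Of 7 squamous genes, 1 was higher in Ishikawa and 4 in lung by peaks, and 1 and 2 by base share, at which KRT14 and DSG3 overlapped. PKP1, a desmosome plaque protein, had no peak in Ishikawa, against 5 and 5 in H358 and 5 and 6 in H2009, and its 2 lung-only regions lay on either side of the start, at chr1:201243860-201244386 and chr1:201259255-201259780. SOX2, a factor of squamous and airway progenitors, had no peak in Ishikawa, against 3 and 3 in H358 and 2 and 3 in H2009. KRT14, a basal keratin, had 4 and 6 peaks in Ishikawa, against 13 and 8 in H358 and 14 and 12 in H2009. Within 2 kb of the KRT14 start, however, 1 lung library and 0 Ishikawa libraries had a peak. The 2 lung-only regions of its window lay 39.2 and 92.1 kb from the start, so its peak counts describe the neighbourhood and not the gene itself. In the squamous lines HCC95 and BICR31, PKP1 had 12 and 9 peaks, SOX2 5 and 5, and KRT14 16 and 15.

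TP63, the master factor of squamous cells, went the other way. It had 6 and 7 peaks in Ishikawa, against 2 and 2 in H358 and 2 and 3 in H2009, with 4 Ishikawa-only regions, and HCC95 and BICR31 had 5 and 6 peaks. The widest of them was chr3:189489308-189492551 (3244 bp). None of the 6 Ishikawa and lung libraries had a peak within 2 kb of the position taken as the TP63 start. That position lies between the Ishikawa-only regions chr3:189489308-189492551 and chr3:189523317-189524645. Other start positions of TP63 were not examined. Of 7 mesenchymal genes, CDH2 was higher in Ishikawa and SNAI2 in lung, with VIM, ZEB1, ZEB2, TWIST1 and FN1 overlapping in peaks, and FN1 was higher in lung by base share.

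Of 7 housekeeping genes, 0 were higher in Ishikawa and 2 in lung by peaks, and 2 and 2 by base share, and 6 had a peak at the start in all 6 libraries. TUBB, a tubulin gene, had 12 and 10 peaks in Ishikawa, against 11 and 13 in H358 and 6 and 8 in H2009, with 3 Ishikawa-only and 2 lung-only regions. Class regions are thus also found around genes that every cell uses.

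**Figure D4:**
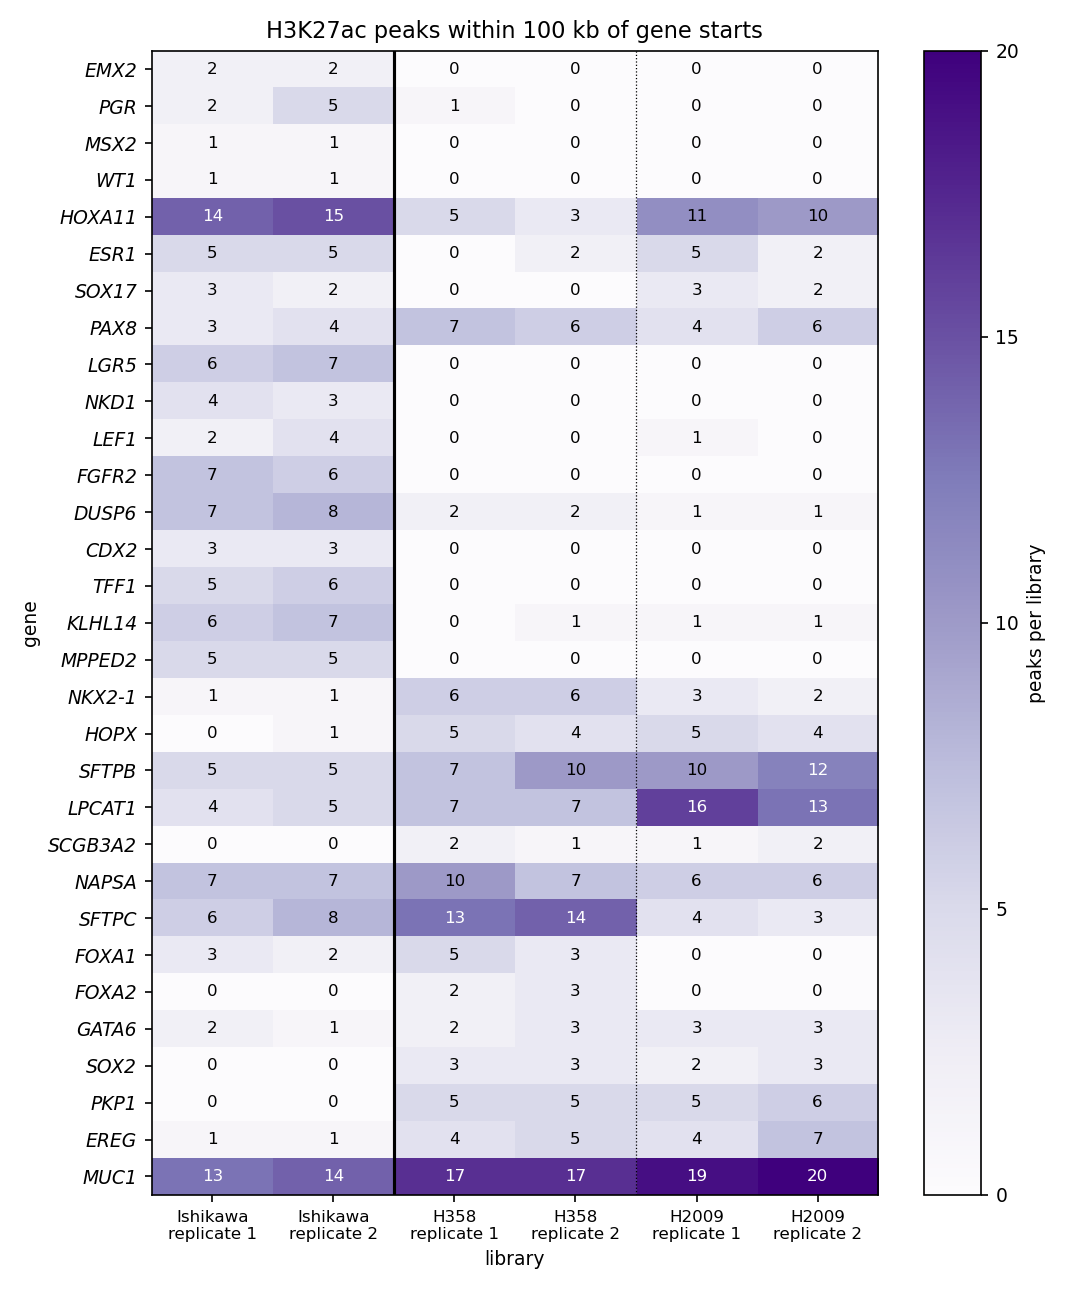
Number of H3K27ac peaks within 100 kb of the start of 31 genes (rows) in each Ishikawa, H358 and H2009 library (columns, solid line between Ishikawa and lung, dotted line between the lung lines), as numbers and shading. LGR5, FGFR2, NKD1, CDX2, TFF1, EMX2, MSX2, WT1 and MPPED2 have peaks in both Ishikawa libraries and 0 in all lung libraries, and PKP1, SOX2 and SCGB3A2 the reverse.

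The widest regions of each class are given by position. Names of genes outside the 131 listed, here and in the groups that follow, were added after their values had been seen. The widest, chr18:30346413-30354565, was 8153 bp long over the start of KLHL14, a kelch-like protein gene, with 1 peak of 8153 bp in the first Ishikawa library and 1 of 6104 bp in the second. KLHL14 had 6 and 7 peaks within 100 kb in Ishikawa, against 0 and 1 in H358 and 1 and 1 in H2009. Next came chr11:30441080-30449161, 8082 bp within MPPED2, a metallophosphoesterase gene with 5 and 5 peaks within 100 kb of its start in Ishikawa and none in the lung libraries. The others were chr13:34181783-34189840 (8058 bp, STARD13), chr3:166841028-166848971 (7944 bp, with no named gene) and chr13:114819408-114827240 (7833 bp, RASA3). KLHL14 and MPPED2 stood in the gene lists because earlier results of these data had shown them.

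Width and score did not go together in these regions. At the KLHL14 region the authors' score was 58.9 in the first Ishikawa library and 232 in the second, and at MPPED2 72.3 and 290, where the median over each whole list was 151. The 5 widest thus scored below their list's median in the first library and above it in the second.

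Lung-only regions were narrower. The widest was chr5:33049083-33051222 (2140 bp), 161 kb from the nearest Ishikawa peak, followed by chr16:56659012-56660897 (1886 bp), which covered MT1E, a metallothionein gene, and lay 0.241 kb from an Ishikawa peak. A region of 1696 bp on chromosome 8, one of 1627 bp at chr20:58507911-58509537 and another of 1575 bp on chromosome 8 completed the 5 widest. The deposited fold enrichment at the widest was 6.01 and 4.72 in H358 and 4.90 and 5.34 in H2009.

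Ishikawa-only regions also lay nearer to each other than lung-only regions did, in a class that was also larger. The median distance to the next region of the same class was 75.6 kb for Ishikawa-only and 247 kb for lung-only regions. Joined within 50 kb, Ishikawa-only regions formed 253 groups of 3 or more, which held 903 regions (17.3%), and lung-only regions 25 such groups with 93 regions (6.69%). Single regions made up 59.3% of the Ishikawa-only and 72.6% of the lung-only class.

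Leading the Ishikawa-only groups were 2 of 9 regions. The first lay at STON2, an endocytic adaptor gene (chr14:81735901-81927134), where Ishikawa had 12 and 14 peaks, against 3 and 2 in H358 and 2 and 2 in H2009. The second spanned SBNO2 and the kinase gene STK11 (chr19:1082260-1228662), where Ishikawa had 13 and 14 peaks, against 6 and 3 in H358 and 5 and 5 in H2009. A group of 7 lay at FGFR1, another fibroblast growth factor receptor, on chromosome 8, with 9 and 8 peaks in Ishikawa, against 1 and 0 in H358 and 0 and 0 in H2009. A pair of groups of 6 lay on chromosome 18, at chr18:20393650-20505718 and, at KCTD1, chr18:23985103-24109433. In the first of these Ishikawa had 7 and 8 peaks, against 0 and 1 in H358 and 1 and 1 in H2009, and in the second 7 and 7, against 0 and 1 in H358 and 0 and 0 in H2009.

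The densest lung-only group, 8 regions at chr17:78735629-78866637, lay within RPTOR, which encodes a subunit of the kinase complex mTORC1. Ishikawa had no peak in this stretch of 131 kb, against 11 and 9 in H358 and 13 and 11 in H2009. The next, 7 regions at chr5:140165753-140255508, lay in the protocadherin alpha cluster, an array of cell adhesion genes each with its own promoter, where Ishikawa had 2 and 2 peaks, against 10 and 9 in H358 and 12 and 12 in H2009. Its 7 regions were 368 to 570 bp wide. A group of 6 lay at chr17:79283256-79361500 and one of 5 at chr9:132199648-132260159.

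The fifth lung-only group lay beside FCGR2A at chr1:161417583-161483895, where Ishikawa had no peak, against 6 and 6 in H358 and 7 and 6 in H2009. Its first 4 regions were regularly spaced, with starts 7.40, 7.41 and 7.38 kb apart. RefSeq (GRCh38.p14) lists 27 transfer RNA genes within 100 kb before FCGR2A, among them 5 aspartate genes of a repeated array. Near-identical copies can share reads, so the position of these lung peaks is uncertain.

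A smaller lung-only group of 3 regions, the ninth by number and picked after its values were seen, lay at chr6:32805568-32821562 and covered PSMB8, PSMB9 and TAP1, genes of the immunoproteasome and of peptide transport for antigen presentation. Ishikawa had no peak there, against 4 and 3 in H358 and 4 and 5 in H2009.

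Counted in fixed windows of 1 Mb, Ishikawa-only regions occurred in 1859 and lung-only regions in 825 of the 2678 windows with a region, 629 windows holding both. Windows with 5 or more Ishikawa-only regions numbered 316, of which 193 held no lung-only region, and those with 5 or more lung-only regions 25, of which 4 held no Ishikawa-only region. The densest Ishikawa-only window was the second megabase of chromosome 19, with 14 of 85 regions, followed by 12 of 22 regions at AFF3 on chromosome 2 and 12 of 32 at FGFR2 on chromosome 10. The densest lung-only windows were 2 on chromosome 17, with 11 of 97 regions from 79000001 and 10 of 73 from 76000001, and the protocadherin window on chromosome 5 with 9 of 65.

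Chromosomes differed in their share of each class. Chromosome 17 had the lowest Ishikawa-only share, 7.66% (194 of 2531 regions), and the highest lung-only share, 5.14% (130 regions). Chromosomes 21 and 18 had the highest Ishikawa-only shares, 15.6% and 14.8%. Chromosome 10 had the lowest lung-only share, 1.05% (21 regions), and chromosome 18 had 10 lung-only regions among 877 (1.14%). The ratio of Ishikawa-only to lung-only regions ran from 1.49 on chromosome 17 to 13 on chromosome 18.

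**Figure D5:**
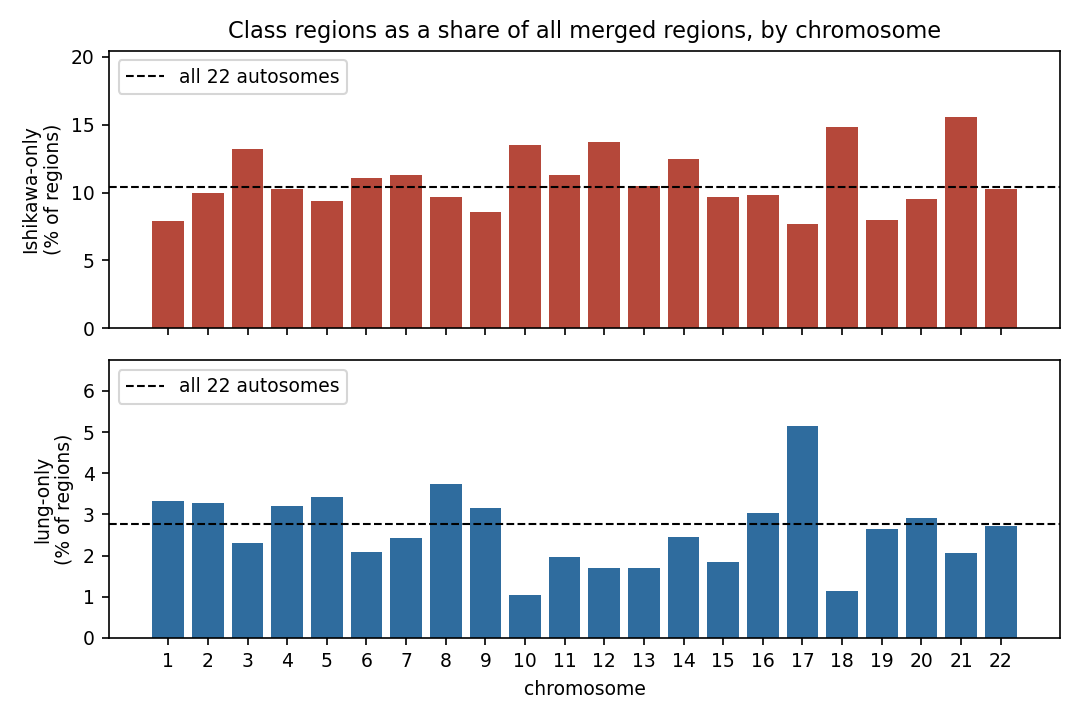
Ishikawa-only regions (upper panel) and lung-only regions (lower panel) as a share of all merged regions of each autosome (bars, %), with the share over all 22 autosomes as a dashed line. Chromosome 17 is the lowest bar above and the highest below, and chromosomes 18 and 21 are the highest above.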

How the data were processed

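H3K27ac ChIP-seq peak lists, 1 per library, were used as deposited. Reads were aligned with BWA to hg19, per the submitters' processing notes; the sources used here do not give the peak caller, the control or the depth, although the deposited Ishikawa peak names begin with MACS. The lung lists held, per peak, a deposited score, a fold enrichment ratio, a deposited −log10 p and −log10 q, and a summit offset, an other kind of value deposited by the authors and not used. The Ishikawa lists held a deposited score alone, from 50 up. These values ranked or described peaks within their own list only.

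From the lists, peaks on chromosomes 1 to 22 of the 6 libraries were merged (minimum overlap 1 bp), classed by presence, joined within 50 kb into groups and counted within 100 kb of gene starts. Work used Python 3.11.15, pandas 2.3.3, numpy 2.4.6, scipy 1.17.1 and matplotlib 3.10.9, and the class rule was tested on simulated peaks. Gene starts in hg19, to the kilobase, came from general knowledge; all 131 genes were found in the RefSeq table (GRCh38.p14) on the same chromosome. The members and lists were chosen with earlier results of these data known. Genes named with values were 14 fixed lineage genes and, of all listed genes, the 10 with most Ishikawa-only and the 10 with most lung-only regions within 100 kb, and further genes chosen after their values were seen, 1 of the fixed genes not being reported here; regions named were the 5 widest and 5 densest groups of each class and the 3 densest windows, and 2 further groups chosen after their values were seen. No test between groups was run. Alternatives were other widths, overlaps, windows, joining distances, higher-ranked peaks and omitted libraries.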

Additional observations from a re-analysis of the deposited data

Results flagged for a closer look

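At 7 listed genes, H358 and H2009 stood on opposite sides of Ishikawa in peaks within 100 kb, in every library. The difference between the lung lines (mean H2009 minus mean H358, the difference of the 2 differences from Ishikawa) was not tested. SFTPC, a surfactant protein gene, had 6 and 8 peaks in Ishikawa, against 13 and 14 in H358 and 4 and 3 in H2009, a difference of -10 peaks. FOSL1, an AP-1 factor, had 8 and 9 in Ishikawa, against 13 and 14 in H358 and 6 and 5 in H2009, a difference of -8. PHLDA1 and DUSP4, both induced by MAP kinase signalling, differed by -4.5 and -4. In the HOXB cluster the order was reversed. HOXB2 had 2 and 2 peaks in Ishikawa, against 0 and 0 in H358 and 12 and 10 in H2009, a difference of 11. HOXB7 and HOXB9, which share most of their window, differed by 7.5 and 7.5, with 2 and 2 peaks in Ishikawa for each. No lung-only region can arise where 1 lung line has no peak, and the HOXB windows held none.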

How the results depend on the processing

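Under 21 alternative settings, 54 of 86 recomputed counts and shares stayed within 1.5 times the count or within the interval of the share. With the higher-ranked 50% of each list there were 1550 Ishikawa-only and 481 lung-only regions, 12 and 7 groups of 3 or more, 80.2% and 83.0% of regions over 10 kb from the other group, and 8 listed genes higher in lung; the differences at PGR (-0.25 peaks) and KRT7 (-0.50) turned to lung higher. Requiring peaks to cover 50% of a region gave 13671 Ishikawa-only and 700 lung-only regions, and a peak in at least 1 library of a line sufficing gave 10551 and 5056. With peaks set to 1500 bp, HCC95 had a peak in 15.3% and BICR31 in 24.6% of Ishikawa-only regions. Joining over the shorter distance planned gave 52 Ishikawa-only and 8 lung-only groups, and over 100 kb 420 and 59. By the share of called bases, 53 listed genes were higher in Ishikawa.

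Leaving out 1 library at a time gave 5561 to 9428 Ishikawa-only regions, 1531 to 1874 lung-only regions, 279 to 770 Ishikawa-only and 29 to 50 lung-only groups, 34 to 49 genes higher in Ishikawa and 20 to 24 higher in lung. Fewer libraries make each class easier to enter, by construction. The gene counts could likewise rise but not fall, since leaving out a library cannot create overlap between the groups. Without the first Ishikawa library there were 9428 Ishikawa-only regions in 770 groups of 3 or more, and without the second 7973 in 497. Lung-only groups numbered 45 and 39 without the first and second H358 library, and 47 and 50 without the first and second H2009 library. Chosen after seeing the data, leaving out all of H358 gave 4271 lung-only regions, 397 Ishikawa-only and 165 lung-only groups, and leaving out all of H2009 gave 4019 lung-only regions, 189 lung-only groups and 35 genes higher in lung. At the 19 named genes whose groups did not overlap, 210 of 228 recomputed differences kept their direction without overlap and 14 kept it with overlap. A further 2 became 0 (EMX2 in the higher-ranked peaks and SFTPB within 50 kb), and 2, those above, reversed. Leaving out a library or line cannot create overlap, so the differences recomputed that way were bound to be kept. All changes came with the higher-ranked peaks, the other window sizes or the base share. Apart from the omitted libraries and lines, the cause of each change was not tested. No paired analysis was possible because the results come from no test. Depth is unknown, file form goes with the line, and a region absent from a list may be acetylated below its threshold.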
